A study of Saccharomyces cerevisiae with 12 samples.

Results

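The mitochondrial protein import machinery of budding yeast was followed on 12 dual-colour oligonucleotide arrays. Its members were the genes whose symbol is TOM or TIM followed by a number, together with SAM35, SAM37, SAM50, PAM16, PAM17, PAM18, MAS1, MAS2, OXA1, MIA40, ERV1, MDM10, IMP1 and IMP2. The rule gave 37 of the 5636 genes tested. It used symbols and no measured value. Of the 37, TOM1 and TIM11 share the naming pattern but not the function, and they are described apart from the other 35. The arrays set Saccharomyces cerevisiae labelled as a gcr1 null mutant against a second strain, in cultures with raffinose at 3%, galactose at 3% or glucose at 2%. Each sugar had 4 arrays, and on each array both RNA pools came from the same sugar. GCR1 encodes a transcriptional activator of glycolytic genes. The labels name neither the second strain, taken here as the GCR1 parent, nor the strain background, the way the allele was made or the number of clones. The design includes dye-swapped repeats of biological replicates, but the labels do not say which arrays repeat a culture, so the 4 arrays of a sugar stem from fewer than 4 cultures, and the p-values given here may be smaller than independent cultures would give.

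Most mitochondrial proteins are encoded in the nucleus, made in the cytosol and imported. The TOM complex of the outer membrane is the common entry gate. From it, proteins with a cleavable presequence pass to the TIM23 complex and are drawn into the matrix by the PAM motor, carrier proteins are escorted by the small TIM chaperones to the TIM22 complex, beta-barrel proteins are inserted by the SAM complex, and cysteine-rich proteins of the intermembrane space are trapped by the disulfide relay of Mia40 and Erv1. Presequences are then removed by peptidases.

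Each value is the deposited log2 ratio of a gene, taken as labelled mutant over second strain, so that a negative value means less RNA in the labelled mutant, and means are given ± SD over the 4 arrays of a sugar. That direction is not settled. It was taken from negative ratios of genes known to be activated by Gcr1, whose values are not given here. GCR1 itself read above 0 on all 12 arrays (0.21 to 2.04), which goes the other way. If the ratios ran the other way, each rise given here would be a fall and each fall a rise. The arrays also fell into a pattern by number. Over genes, replicates 1 and 2 of raffinose correlated with replicates 3 and 4 at r = 0.25 to 0.48, against 0.95 and 0.96 within those pairs. Over all probes they correlated at r = -0.51 to -0.34. All probes include 1536 without a single gene name, which entered no test. The correlation was thus positive over the genes tested and negative over all probes. The sign of raffinose replicates 3 and 4 relative to replicates 1 and 2 was kept as deposited and is also not settled. The same correlations in galactose were 0.66 to 0.74 over genes and -0.14 to -0.051 over all probes, and in glucose 0.80 to 0.86 and 0.10 to 0.12. With the 2 raffinose arrays turned, limma called 0 of the 37 genes in raffinose, beside 0 of all genes tested, and the median of the members was 0.31. Turning makes each raffinose mean a difference between replicates 1 and 2 and replicates 3 and 4. What these arrays share then cancels, so the 0 calls cannot decide the sign. Values of single arrays are therefore given in the order of replicates 1 to 4, and replicates 1 and 2, and 3 and 4, are called array pairs. The pairs are read from these correlations, and the labels do not say whether they differ by dye, culture or day. The precision is limited by the number of arrays, since no spot intensities were used here.

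Most import genes had a mean ratio below 0, with the lowest median in galactose, but in raffinose fewer were called. The mean was below 0 for 29 of the 37 genes in raffinose, 33 in galactose and 32 in glucose. Over all 5636 genes the counts were 2576, 2615 and 2926. In raffinose 17 of the 37 genes fell and 0 rose, in galactose 31 of the 37 genes fell and 2 rose, and in glucose 19 of the 37 genes fell and 2 rose (limma, threshold 0.05 on the Benjamini-Hochberg adjusted p). Of all genes tested, raffinose had 36.7% called in either direction, galactose 60.0% and glucose 58.6%. By direction, 14.3% of all genes were lower and 22.4% higher in raffinose, 25.2% and 34.8% in galactose, and 31.8% and 26.8% in glucose. The 37 genes had a median log2 ratio of -0.47 in raffinose, -0.93 in galactose and -0.42 in glucose, beside 0.051, 0.078 and -0.038 over all genes. The members spread widely around it, between -2.38 for TIM10 and 0.80 for TOM1 in galactose. Calls of lower ratio in all 3 sugars were made for 12 members, TOM5, TOM6, TOM20, TOM40, TIM8, TIM9, TIM10, TIM12, TIM23, TIM44, PAM18 and IMP2, beside 7.10% of all genes. MDM10, MIA40, IMP1, TIM54 and TOM1 were called lower in no sugar.

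**Figure D1:**
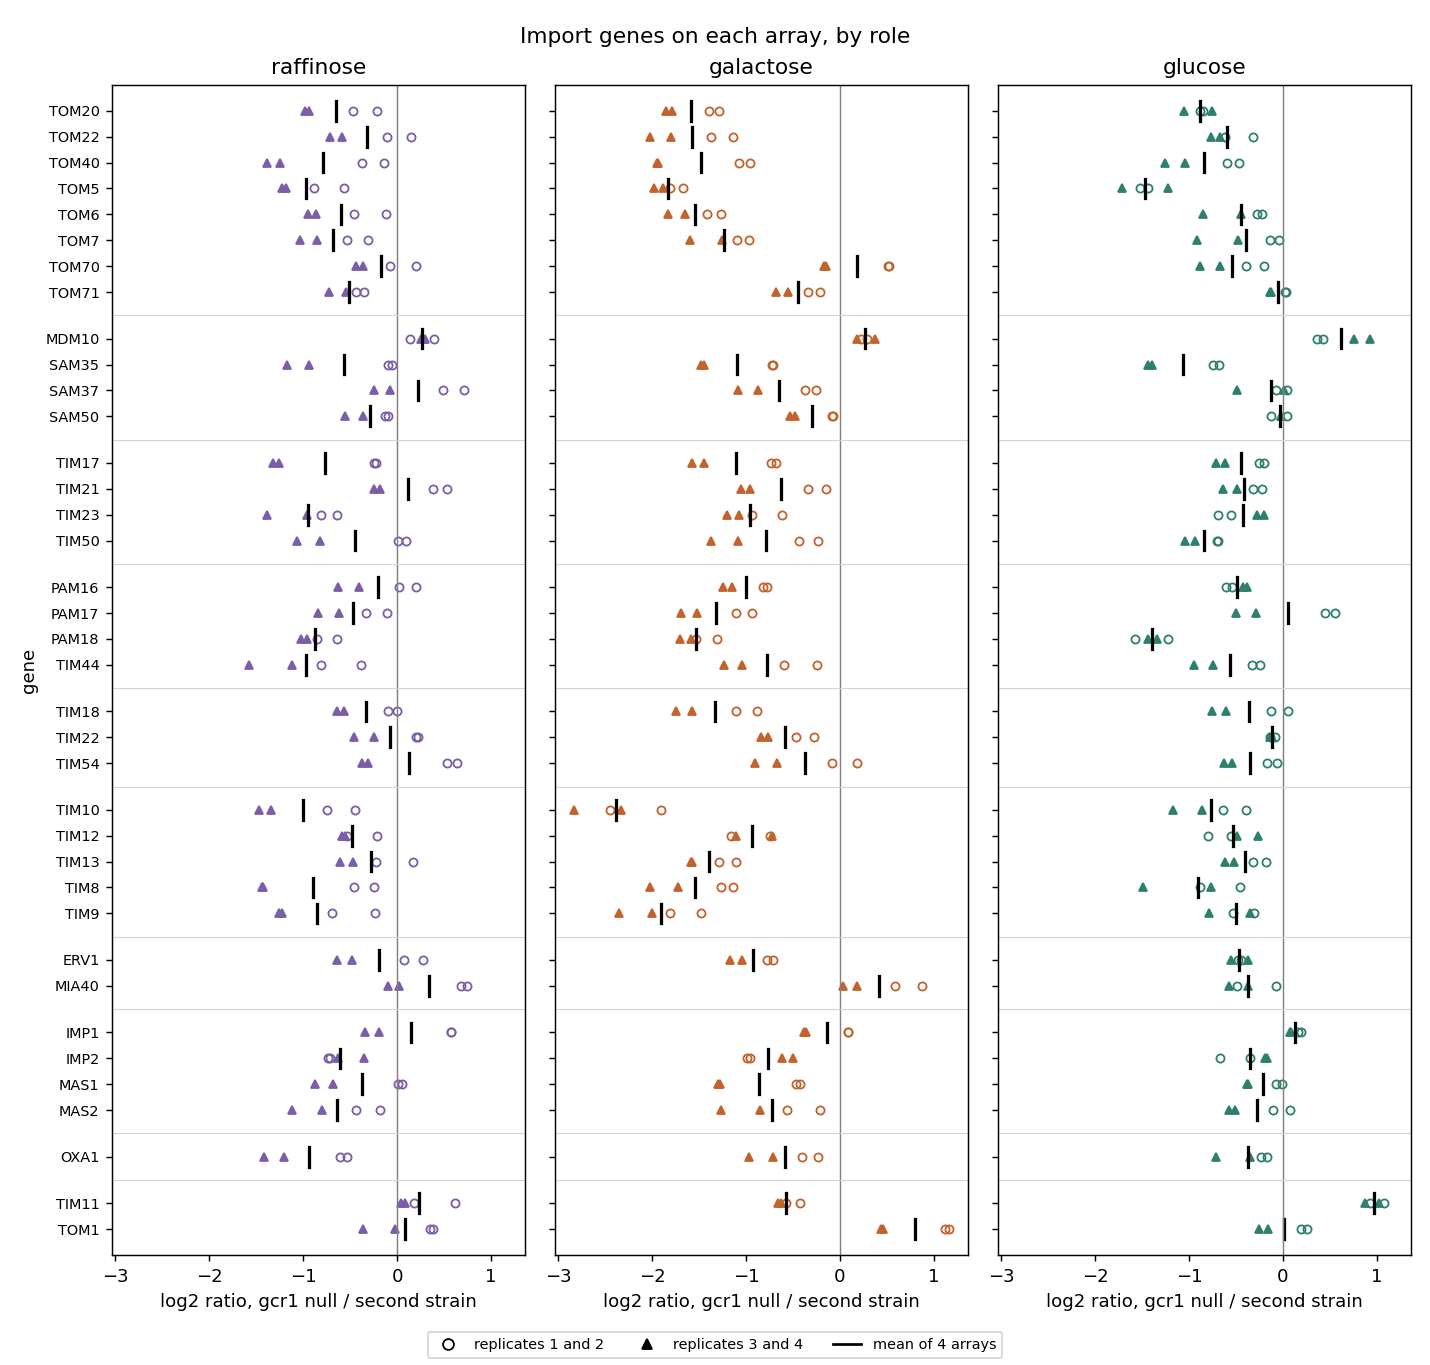
Log2 ratio (labelled gcr1 null over second strain) of each of the 37 import genes, by role from the TOM complex at the top to the genes matched by symbol at the bottom, in raffinose, galactose and glucose. Open circles are replicates 1 and 2, triangles replicates 3 and 4, and black bars the mean of 4 arrays; most genes lie left of 0 in galactose, where TIM10 averages -2.38.

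The median of the members was below 0 on all 12 arrays, and further below on replicates 3 and 4 than on replicates 1 and 2 in each sugar. The members' median on replicates 1 to 4 was -0.096, -0.18, -0.72 and -0.62 in raffinose, -0.68, -0.73, -1.10 and -1.24 in galactose and -0.31, -0.24, -0.49 and -0.58 in glucose. In raffinose it lay near 0 on replicates 1 and 2 and well below 0 on replicates 3 and 4, while in galactose it lay clearly below 0 on all 4 arrays. Over all genes the medians were 0.29, 0.23, -0.19 and -0.050 in raffinose, 0.30, 0.22, -0.033 and -0.094 in galactose and -0.054, -0.012, -0.11 and -0.089 in glucose, and on each of the 12 arrays the members' median was the lower. Replicates 3 and 4 read lower than replicates 1 and 2 for 35 of 37 members in raffinose, 34 in galactose and 28 in glucose; over all genes the shares were 81.6%, 83.3% and 64.8%. When the 2 arrays of a pair were averaged before the fit, 0 members kept a call in raffinose, 20 in galactose and 4 (TOM5, TOM20, PAM18 and TIM11) in glucose. The same averaging called 184, 1688 and 1564 of all 5636 genes in raffinose, galactose and glucose. The galactose calls lost in this way were those of MAS1, MAS2, MDM10, OXA1, SAM37, SAM50, TIM11, TIM21, TIM22, TIM44, TIM50, TOM1 and TOM71 (adjusted p = 0.065 to 0.403), and the other 17 calls each of raffinose and glucose had adjusted p = 0.0702 to 0.259 and 0.0501 to 0.31. With the raffinose arrays fitted alone 11 members were called, beside 1233 of all genes, without MAS2, TIM12, TIM17, TIM8, TOM40 and TOM6 (adjusted p = 0.0501 to 0.0718), and with the galactose arrays alone MDM10 and SAM50 were not (adjusted p = 0.147 to 0.151). With the replicate number as a block, 28 members were called in raffinose, against 17 without it, beside 3406 and 2071 of all genes. The block assumes that same-numbered arrays belong together across sugars, which was not established. It also takes up the part of the split between array pairs that the sugars share, which lowers p-values. Both limits hold for every value given below with the block. The members gained with the block were MAS1, MDM10, MIA40, PAM17, SAM35, SAM50, TIM11, TIM13, TIM18, TIM50 and TOM22 (adjusted p = 5.71e-05 to 0.0339), MDM10, MIA40 and TIM11 as higher and the others as lower.

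**Figure D2:**
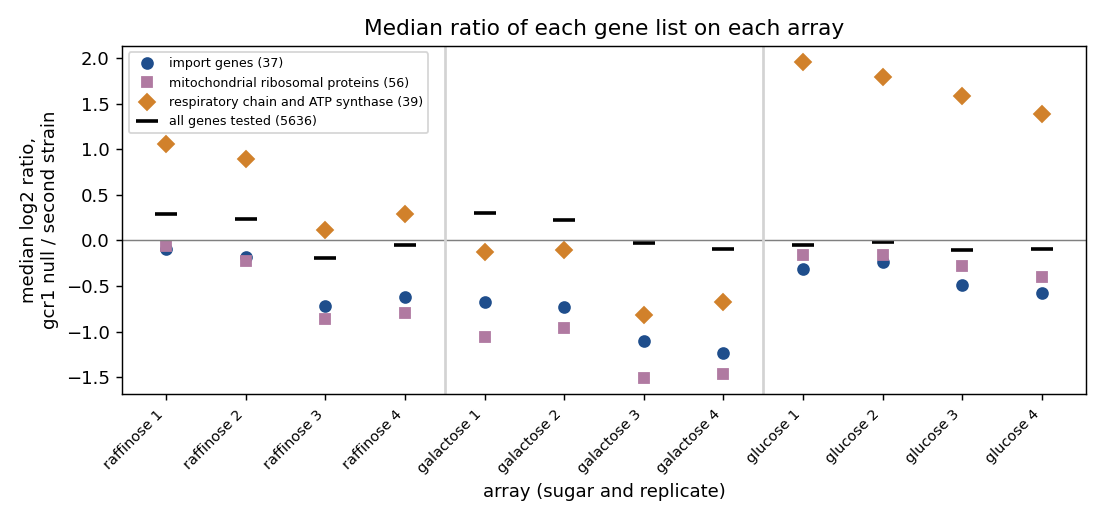
Median log2 ratio (labelled gcr1 null over second strain) of 3 gene lists and of all genes tested on each of the 12 arrays, with the number of genes in brackets. The import genes lie below all genes on every array and fall furthest on galactose replicates 3 and 4, at -1.10 and -1.24.

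Among the genes of the TOM complex, TOM5, TOM6, TOM20 and TOM40 fell in all 3 sugars, and the receptor gene TOM70 fell in glucose and in no other sugar. Of the 8 genes 6 fell in raffinose, 7 in galactose and 6 in glucose, and 0 rose in any sugar. TOM5 encodes a small subunit that hands precursors on to the channel. Its ratio on replicates 1 to 4 was -0.57, -0.89, -1.19 and -1.22 in raffinose (-0.97 ± 0.31, adjusted p = 9.62e-05), -1.81, -1.67, -1.98 and -1.89 in galactose (-1.83 ± 0.13, adjusted p = 1.74e-07) and -1.43, -1.52, -1.22 and -1.71 in glucose (-1.47 ± 0.20, adjusted p = 6.97e-07). All 12 arrays lay below 0, and in glucose the array pairs overlapped. In linear terms the galactose mean corresponds to a 3.57-fold lower level. TOM40, the pore-forming channel, was at -0.78 ± 0.62 in raffinose, at -0.96, -1.07, -1.94 and -1.95 in galactose (-1.48 ± 0.54, adjusted p = 0.000147) and at -0.84 ± 0.37 in glucose. TOM22, the central receptor that holds the complex together, had 0.15, -0.11, -0.72 and -0.59 in raffinose (-0.32 ± 0.41, adjusted p = 0.161), where it was not called. It fell in galactose, at -1.37, -1.14, -2.02 and -1.79 (-1.58 ± 0.40, adjusted p = 5.68e-06), and in glucose, at -0.31, -0.61, -0.67 and -0.76 (-0.59 ± 0.20, adjusted p = 0.00881). TOM20, a receptor for presequences, fell in all 3 sugars, to -0.65 ± 0.37, -1.58 ± 0.28 and -0.89 ± 0.13 in raffinose, galactose and glucose. The small subunit genes TOM6 and TOM7, whose products govern assembly of the complex, were at -0.60 ± 0.38 and -0.68 ± 0.32 in raffinose, -1.55 ± 0.25 and -1.23 ± 0.27 in galactose, and -0.45 ± 0.29 and -0.39 ± 0.40 in glucose, where TOM7 was not called (adjusted p = 0.0556; adjusted p = 0.00283 with the replicate number as a block). Raffinose calls were lost for TOM6 without replicate 4 (adjusted p = 0.0545), and for TOM40 without replicate 3 or 4 (adjusted p = 0.0978 and 0.1). Glucose calls were lost for TOM6 without replicate 3 or 4 (adjusted p = 0.0653 and 0.143), and for TOM70 without replicate 3 or 4 (adjusted p = 0.076 and 0.0515).

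TOM70 and its paralog TOM71 encode receptors for precursors that carry internal targeting signals, and their called sugars differed. TOM70 had ratios of 0.52, 0.51, -0.15 and -0.17 in galactose (0.18 ± 0.39, adjusted p = 0.356), above 0 on replicates 1 and 2 and below 0 on the others. In glucose it fell, to -0.54 ± 0.30 (adjusted p = 0.0119). TOM71 fell in raffinose, at -0.44, -0.35, -0.72 and -0.55 (-0.51 ± 0.16, adjusted p = 0.0023), and in galactose, at -0.21, -0.34, -0.55 and -0.69 (-0.45 ± 0.21, adjusted p = 0.00263). In glucose TOM71 had 0.036, 0.021, -0.14 and -0.13 (-0.052 ± 0.093, adjusted p = 0.696). Whether probes of these paralogs share signal was not tested.

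The SAM complex, which inserts beta-barrel proteins such as Tom40 into the outer membrane, was split. Of its 4 genes, SAM35, SAM37 and SAM50 fell in galactose and MDM10 rose there, and in raffinose 0 fell and 0 rose. SAM35, a subunit that recognises the beta-signal of precursors, had -0.71, -0.73, -1.45 and -1.48 in galactose (-1.09 ± 0.43, adjusted p = 0.000801) and -0.68, -0.75, -1.39 and -1.44 in glucose (-1.06 ± 0.41, adjusted p = 0.00103). Both sugars gave values below 0 on all 4 arrays, with replicates 3 and 4 lower. In raffinose SAM35 averaged -0.57 ± 0.57 (adjusted p = 0.0589; adjusted p = 5.71e-05 with the replicate number as a block). SAM37, which stabilises the complex, was at 0.22 ± 0.45 in raffinose, fell in galactose (-0.64 ± 0.40, adjusted p = 0.00741) and was at -0.12 ± 0.25 in glucose. SAM50, which encodes the core barrel of the complex, fell by a small amount in galactose (-0.30 ± 0.25, adjusted p = 0.0391). MDM10 codes for a barrel protein that also belongs to the tether between mitochondria and endoplasmic reticulum. It had 0.29, 0.22, 0.38 and 0.18 in galactose (0.27 ± 0.087, adjusted p = 0.0468) and 0.37, 0.43, 0.76 and 0.93 in glucose (0.62 ± 0.27, adjusted p = 0.000295). With 0.27 ± 0.11 in raffinose (adjusted p = 0.0685; adjusted p = 0.0226 with the block), it was above 0 on all 12 arrays. The galactose call of MDM10 was lost with each array centred on its median (adjusted p = 0.239), after quantile normalization (adjusted p = 0.207) and without any of the 4 galactose arrays in turn (adjusted p = 0.0659 to 0.157). Other galactose calls were lost for SAM37 without replicate 3 (adjusted p = 0.052), and for SAM50 without replicate 3 or 4 (adjusted p = 0.165 and 0.172).

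All 4 genes of the TIM23 complex and all 4 of its import motor fell in galactose. TIM23, the channel subunit, had -0.82, -0.64, -1.38 and -0.96 in raffinose (-0.95 ± 0.32, adjusted p = 0.000241), -0.62, -0.93, -1.08 and -1.20 in galactose (-0.96 ± 0.25, adjusted p = 7.03e-05) and -0.69, -0.55, -0.27 and -0.20 in glucose (-0.43 ± 0.23, adjusted p = 0.0181). Its values were below 0 on all 12 arrays, and in glucose, unlike for most members, replicates 1 and 2 were the lower. TIM17, which lines the same channel, was at -0.77 ± 0.61 in raffinose, -1.11 ± 0.47 in galactose and -0.45 ± 0.25 in glucose, the last not called (adjusted p = 0.091; adjusted p = 0.00099 with the block). TIM50, the receptor that takes over precursors from the TOM complex, fell in galactose (-0.78 ± 0.54, adjusted p = 0.00711) and glucose (-0.84 ± 0.17, adjusted p = 0.00463). TIM21, which links the complex to TOM and to respiratory chain complexes, was at 0.12 ± 0.39 in raffinose, fell in galactose (-0.63 ± 0.45, adjusted p = 0.00706) and was at -0.42 ± 0.19 in glucose, where it was not called (adjusted p = 0.0541; adjusted p = 0.000938 with the block). The raffinose call was lost for TIM17 without replicate 3 or 4 (adjusted p = 0.0729 and 0.0804). That in glucose was lost for TIM23 without replicate 1 or 2 (adjusted p = 0.0927 and 0.0711).

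In the motor, PAM18 had the lowest ratio in galactose and in glucose. This gene encodes the J-protein that stimulates the ATPase of mitochondrial Hsp70. Its ratios were -0.64, -0.86, -1.02 and -0.96 in raffinose (-0.87 ± 0.17, adjusted p = 5.8e-05), -1.53, -1.31, -1.70 and -1.59 in galactose (-1.53 ± 0.17, adjusted p = 1.75e-07) and -1.22, -1.57, -1.34 and -1.43 in glucose (-1.39 ± 0.15, adjusted p = 2.31e-07). The raffinose arrays did not overlap those of either other sugar, while galactose and glucose overlapped. PAM16, the J-like partner that holds Pam18 in the motor, fell in galactose (-0.996 ± 0.24, adjusted p = 4.68e-05) and glucose (-0.49 ± 0.10, adjusted p = 0.00814). TIM44, which anchors Hsp70 at the channel, was among the 3 lowest members in raffinose as deposited (number 25 with replicates 3 and 4 turned), at -0.81, -0.38, -1.58 and -1.12 (-0.97 ± 0.50, adjusted p = 0.00243), and fell also in galactose (-0.78 ± 0.44) and glucose (-0.56 ± 0.34). PAM17, a further motor subunit, had -1.10, -0.94, -1.70 and -1.53 in galactose (-1.32 ± 0.35, adjusted p = 7e-05) but 0.55, 0.45, -0.28 and -0.49 in glucose (0.056 ± 0.52, adjusted p = 0.821), where the array pairs had opposite signs. The glucose call was lost for TIM44 without replicate 3 or 4 (adjusted p = 0.137 and 0.102).

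The small TIM chaperones ferry hydrophobic precursors across the intermembrane space, and their 5 genes all fell in galactose and in glucose. In raffinose 4 fell. TIM10 had the lowest ratio of all 37 members in galactose. It was also the lowest in raffinose as deposited, and number 30 from the lowest, at 0.41, with raffinose replicates 3 and 4 turned. Its values were -0.44, -0.74, -1.47 and -1.35 in raffinose (-1.001 ± 0.49, adjusted p = 0.00145), -2.45, -1.91, -2.84 and -2.33 in galactose (-2.38 ± 0.38, adjusted p = 6.04e-07) and -0.39, -0.64, -0.86 and -1.17 in glucose (-0.77 ± 0.33, adjusted p = 0.00382). The galactose mean is a 5.21-fold lower level, and 26 was its rank from the lowest of 5636 genes. The 2 probes of TIM10 differed by 0.35 in glucose, at -0.94 and -0.59, which was the largest gap between probes of any member in any sugar. TIM9, which forms a hexamer with Tim10, averaged -0.85 ± 0.48 in raffinose, -1.91 ± 0.36 in galactose (adjusted p = 1.85e-06) and -0.49 ± 0.22 in glucose. The galactose arrays gave -1.81, -1.48, -2.35 and -2.001. The partner pair TIM8 and TIM13 was at -1.54 ± 0.41 and -1.39 ± 0.23 in galactose and at -0.90 ± 0.43 and -0.41 ± 0.20 in glucose. In raffinose TIM8 fell (-0.89 ± 0.63, adjusted p = 0.00838) and TIM13 was not called (-0.28 ± 0.34, adjusted p = 0.126; adjusted p = 0.0105 with the block). TIM12, a relative that sits on the TIM22 complex, fell least of the 5 in galactose, at -0.93 ± 0.23 (adjusted p = 2.35e-05). Raffinose replicate 1 of TIM12 stood apart at -0.22, against -0.59 to -0.54 on the other 3 arrays. Without 1 array the raffinose call was lost for TIM8 without replicate 4 (adjusted p = 0.0544). In glucose it was lost for TIM9 without replicate 2, 3 or 4 (adjusted p = 0.0518 to 0.131), and for TIM13 without replicate 3 or 4 (adjusted p = 0.0826 and 0.101).

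Of the 3 genes of the TIM22 complex, which inserts carrier proteins into the inner membrane, TIM18 and TIM22 fell in galactose and none was called in raffinose or glucose. TIM22, its channel gene, averaged -0.070 ± 0.34 in raffinose, fell in galactose (-0.59 ± 0.26, adjusted p = 0.00183) and averaged -0.12 ± 0.026 in glucose, where its 2 probes lay at -0.29 and 0.053. TIM18, an accessory subunit related to a succinate dehydrogenase anchor, had -1.11, -0.88, -1.75 and -1.58 in galactose (-1.33 ± 0.40, adjusted p = 3.37e-05). In raffinose and glucose TIM18 was at -0.33 ± 0.32 and -0.36 ± 0.38, not called without the block (adjusted p = 0.00307 and 0.0012 with it). TIM54, a further subunit, was called in no sugar, with 0.12 ± 0.54 in raffinose, -0.37 ± 0.50 in galactose and -0.35 ± 0.28 in glucose. Under the block it was called lower in galactose and glucose (adjusted p = 0.00279 and 0.00411).

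The disulfide relay genes did not move as one. MIA40, the oxidoreductase that folds small TIM proteins as they arrive, had 0.68, 0.75, -0.10 and 0.019 in raffinose (0.34 ± 0.44, adjusted p = 0.147), 0.88, 0.59, 0.18 and 0.031 in galactose (0.42 ± 0.39, adjusted p = 0.0505) and -0.48, -0.070, -0.57 and -0.37 in glucose (-0.37 ± 0.22, adjusted p = 0.0804). It passed the test in none of them, although all galactose arrays were above 0 and all glucose arrays below. With the replicate number as a block, a pairing that was not established, it was called higher in raffinose and galactose and lower in glucose (adjusted p = 0.0168, 0.00338 and 0.00729). With the arrays of a pair averaged it was called in none of them. ERV1, the sulfhydryl oxidase that recharges Mia40, was at -0.19 ± 0.44 in raffinose (adjusted p = 0.327) and fell in galactose, at -0.78, -0.71, -1.17 and -1.05 (-0.93 ± 0.22, adjusted p = 0.000128). It fell also in glucose (-0.46 ± 0.074, adjusted p = 0.0149). The glucose call was lost for ERV1 without replicate 4 (adjusted p = 0.0568).

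Genes acting after translocation fell in galactose in 4 of 5 cases. MAS1 and MAS2 encode the subunits of the matrix processing peptidase. Their means were -0.38 ± 0.47 and -0.64 ± 0.41 in raffinose, where MAS2 was called (adjusted p = 0.0175) and MAS1 was not (adjusted p = 0.145), -0.87 ± 0.49 and -0.72 ± 0.45 in galactose (adjusted p = 0.00163 and 0.00462), and -0.21 ± 0.19 and -0.28 ± 0.32 in glucose, where neither was. With the block MAS1 was called lower in raffinose (adjusted p = 0.00345) and MAS2 in glucose (adjusted p = 0.0237). The inner membrane peptidase has catalytic subunits encoded by IMP1 and IMP2, and IMP2 was called where IMP1 was not. IMP2 had -0.74, -0.71, -0.36 and -0.63 in raffinose (-0.61 ± 0.17, adjusted p = 0.00201), -0.96, -0.99, -0.50 and -0.62 in galactose (-0.77 ± 0.24, adjusted p = 0.000144) and -0.35, -0.67, -0.17 and -0.18 in glucose (-0.34 ± 0.23, adjusted p = 0.0274), all 12 below 0 and, unlike most members, lower on replicates 1 and 2 in each sugar. IMP1 was called in no sugar, with 0.15 ± 0.49, -0.14 ± 0.27 and 0.13 ± 0.057 in raffinose, galactose and glucose. OXA1, the insertase that places proteins made in the matrix into the inner membrane, had -0.61, -0.53, -1.42 and -1.20 in raffinose (-0.94 ± 0.44, adjusted p = 0.000969), fell in galactose (-0.58 ± 0.33, adjusted p = 0.00929) and was at -0.37 ± 0.24 in glucose (adjusted p = 0.0765; adjusted p = 0.00323 with the block). The raffinose call was lost for MAS2 without replicate 3 or 4 (adjusted p = 0.0886 and 0.0705). The galactose call was lost for OXA1 without replicate 4 (adjusted p = 0.0577). The glucose call was lost for IMP2 without replicate 1 or 2 (adjusted p = 0.0695 and 0.16), with each array centred (adjusted p = 0.173) and after quantile normalization (adjusted p = 0.227).

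The genes matched by symbol alone, TIM11 and TOM1, gave 2 of the 4 calls of a higher ratio among the members. TIM11, first named as an import gene, encodes a subunit of the ATP synthase that helps it form dimers. It had 0.62, 0.18, 0.088 and 0.040 in raffinose (0.23 ± 0.26, adjusted p = 0.114), -0.58, -0.42, -0.66 and -0.63 in galactose (-0.57 ± 0.11, adjusted p = 0.000535) and 1.08, 0.93, 1.02 and 0.87 in glucose (0.98 ± 0.095, adjusted p = 7.02e-06). The 3 sugars did not overlap, and glucose gave the highest mean of any member. In raffinose it was called higher with the block (adjusted p = 0.0339). TOM1 encodes a ubiquitin ligase of the nucleus. It had 0.38, 0.35, -0.36 and -0.023 in raffinose (0.087 ± 0.35), 1.16, 1.12, 0.44 and 0.46 in galactose (0.80 ± 0.40, adjusted p = 0.00106) and 0.19, 0.26, -0.25 and -0.15 in glucose (0.013 ± 0.25). Without these genes 17 members fell and 0 rose in raffinose, 30 fell and 1 rose in galactose, and 19 fell and 1 rose in glucose, a count added after the data were seen.

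Whether the strain ratio depended on the sugar was asked by the contrasts between sugars. More members were called between galactose and glucose and between raffinose and galactose than between raffinose and glucose, mostly with the galactose ratio the lower. Between galactose and glucose, the share of members called in either direction was below that of all genes. The share called with the galactose ratio lower was above it. The contrasts share arrays, so they are not independent of each other. Between galactose and glucose, the ratio was lower in galactose for 13 members and higher for 3, beside 19.3% and 27.8% of all genes (47.1% in either direction; limma). With the replicate number as a block 28 were called, 25 lower and 3 higher, and with the arrays of a pair averaged 3 were, TIM9, TIM10 and TIM11. Over all genes the block called 3894 and averaging 796. With the arrays of these sugars fitted alone TOM71 was not called (adjusted p = 0.062). TIM10 was at -2.38 in galactose and -0.77 in glucose, a difference of -1.62 ± 0.27 (SE; adjusted p = 0.000313), and no array of one sugar reached the range of the other. TIM9 differed by -1.42 ± 0.25 (adjusted p = 0.000488) and TIM13 by -0.99 ± 0.19 (adjusted p = 0.00107). PAM17 stood at -1.32 in galactose and 0.056 in glucose, a difference of -1.37 ± 0.27 (adjusted p = 0.0011). In the TOM complex the difference was -1.10 ± 0.22 for TOM6, -0.99 ± 0.24 for TOM22, -0.84 ± 0.23 for TOM7 and -0.70 ± 0.20 for TOM20. TIM18 differed by -0.97 ± 0.25, TIM11 by -1.55 ± 0.15. Smaller differences were called for TIM23 (-0.53 ± 0.20, adjusted p = 0.0415), PAM16 (-0.51 ± 0.19, adjusted p = 0.0477) and TOM71 (-0.39 ± 0.15, adjusted p = 0.0444). In the other direction MIA40 was at 0.42 in galactose and -0.37 in glucose (0.79 ± 0.24, adjusted p = 0.0171), TOM70 at 0.18 and -0.54 (0.72 ± 0.23, adjusted p = 0.0202), and TOM1 differed by 0.78 ± 0.23 (adjusted p = 0.0142). Leaving out 1 array ended the call for MIA40 without galactose replicate 1 or glucose replicate 3 (adjusted p = 0.0537 and 0.0501), and for TOM70 without galactose replicate 1 or 2 or glucose replicate 3 or 4 (adjusted p = 0.0516 to 0.0671), and for TIM23 without galactose replicate 2, 3 or 4 or glucose replicate 2, 3 or 4 (adjusted p = 0.0562 to 0.112), and for PAM16 without galactose replicate 3 or 4 or glucose replicate 1, 2, 3 or 4 (adjusted p = 0.0623 to 0.126), and for TOM71 without galactose replicate 2, 3 or 4 or glucose replicate 1, 2, 3 or 4 (adjusted p = 0.0561 to 0.117).

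**Figure D3:**
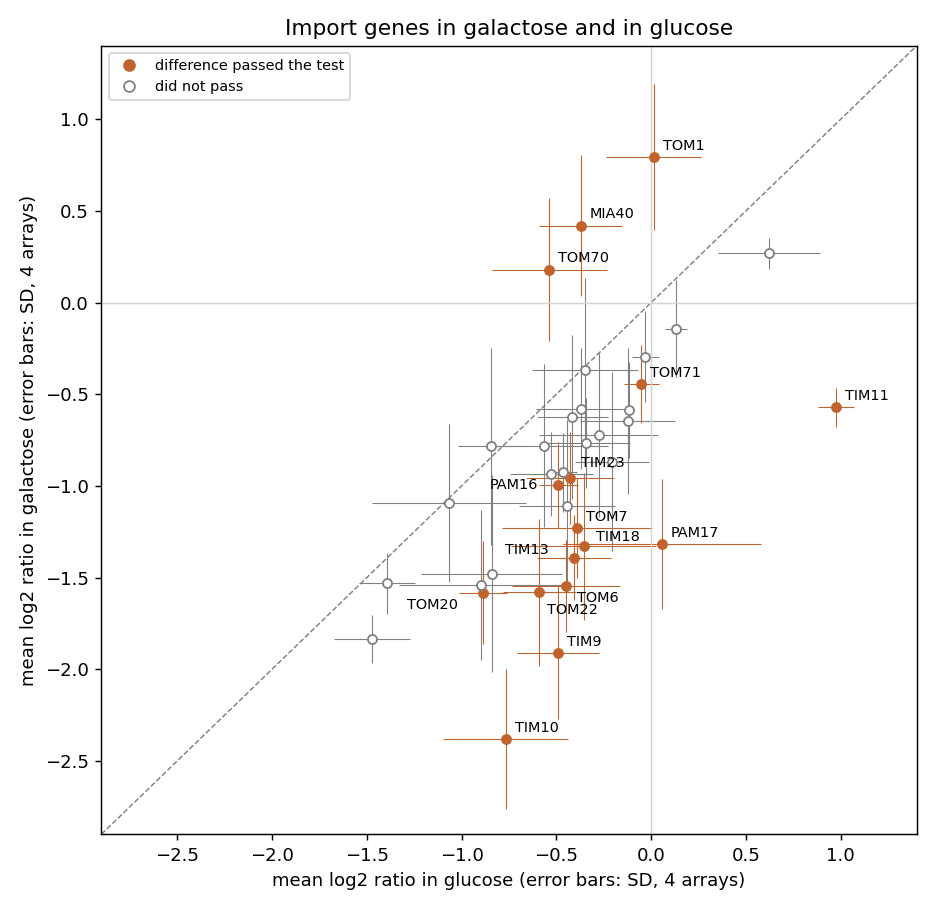
Mean log2 ratio of each of the 37 import genes in galactose (vertical axis) and in glucose (horizontal axis), with SD over 4 arrays as bars and equal ratios on the dashed line. Filled, named points are the 16 genes whose difference passed the test; 13 lie below the line and MIA40, TOM70 and TOM1 above it.

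Between raffinose and galactose, the ratio was higher in raffinose for 15 members and lower for 1, beside 13.3% and 17.2% of all genes (30.5% in either direction). TIM10 was at -1.001 in raffinose and -2.38 in galactose (1.38 ± 0.27, adjusted p = 0.0023), and TOM22 at -0.32 and -1.58 (1.26 ± 0.24, adjusted p = 0.00181). For both genes the 2 sugars did not overlap. The called differences of the other import genes ran from 0.66 ± 0.15 for PAM18 to 1.11 ± 0.19 for TIM13, with the small TIM gene TIM9, the TOM genes TOM5, TOM6 and TOM20, the motor genes PAM16 and PAM17, TIM18, TIM21, SAM37 and ERV1 in between. TIM11 differed by 0.80 ± 0.15 (adjusted p = 0.00197). The one gene with the lower ratio in raffinose was TOM1 (-0.71 ± 0.23, adjusted p = 0.0354). Leaving out 1 array ended the call for TOM1 without galactose replicate 1 or 2 or raffinose replicate 3 or 4 (adjusted p = 0.0758 to 0.0925), and for ERV1 without galactose replicate 3 or raffinose replicate 2 (adjusted p = 0.0543 and 0.0521), and for TIM21 without galactose replicate 3 or 4 or raffinose replicate 1 or 2 (adjusted p = 0.0899 to 0.107), and for PAM17 without galactose replicate 3 or 4 or raffinose replicate 1 or 2 (adjusted p = 0.0736 to 0.0954), and for SAM37 without galactose replicate 3 or 4 or raffinose replicate 1 or 2 (adjusted p = 0.0544 to 0.0695). With the replicate number as a block 27 were called, 24 higher and 3 lower. With the arrays of a pair averaged 0 were called, and quantile normalization gave 14 higher and 4 lower, without PAM17 and PAM18 (adjusted p = 0.0558 to 0.122). Over all genes the block called 3358, averaging 84 and quantile normalization 2335. With the arrays of these sugars fitted alone ERV1, SAM37, TIM21 and TOM1 were not called (adjusted p = 0.0513 to 0.0781).

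Between raffinose and glucose 3 members were higher in raffinose and 2 lower, beside 22.6% and 15.0% of all genes (37.6% in either direction). MIA40 was at 0.34 in raffinose and -0.37 in glucose (0.71 ± 0.24, adjusted p = 0.0364), with overlapping arrays. PAM18 and TOM5 were lower in glucose, with differences of 0.52 ± 0.15 (adjusted p = 0.014) and 0.51 ± 0.17 (adjusted p = 0.0374), while TOM71 (-0.46 ± 0.15, adjusted p = 0.0271) and TIM11 (-0.75 ± 0.15, adjusted p = 0.0023) were lower in raffinose. Leaving out 1 array ended the call for MIA40 without glucose replicate 1, 3 or 4 or raffinose replicate 1 or 2 (adjusted p = 0.069 to 0.107), and for TOM5 without glucose replicate 1, 2 or 4 or raffinose replicate 1 or 2 (adjusted p = 0.0633 to 0.109), and for TOM71 without glucose replicate 1 or 2 or raffinose replicate 3 or 4 (adjusted p = 0.0603 to 0.0667). The direction balance changed with scaling: 4 were higher and 10 lower with each array centred, and 2 higher and 13 lower after quantile normalization, which left TOM5 and PAM18 uncalled (adjusted p between 0.152 and 0.343). With the block 9 were higher and 9 lower, and with the arrays of a pair averaged 0 were called. Over all genes the block called 3492, averaging 132, centring 2814 and quantile normalization 2632. With the arrays of these sugars fitted alone TOM5 was not called (adjusted p = 0.0678). The count was 3 without glucose replicate 1, 2 or 4 or raffinose replicate 1.

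Further genes outside the rule, not all of which act in import, were counted in 5 lists of 56 genes in all. Of these 14 fell and 9 rose in raffinose, 25 fell and 10 rose in galactose, and 16 fell and 20 rose in glucose, with medians of -0.10, -0.26 and 0.033. The shares of all genes, lower and higher, were 14.3% and 22.4% in raffinose, 25.2% and 34.8% in galactose and 31.8% and 26.8% in glucose. Of 11 matrix chaperone genes 4 fell and 3 rose in raffinose, 5 fell and 3 rose in galactose and 4 fell and 3 rose in glucose. HSP10, the co-chaperonin of Hsp60, fell to -1.49 ± 0.64 in raffinose and -1.79 ± 0.54 in galactose, whereas HSP78, a matrix disaggregase induced by stress, rose to 1.06 ± 0.33 and 2.10 ± 0.40 there. In glucose HSP10 also fell (-1.295 ± 0.30) and HSP78 also rose (2.205 ± 0.18). OM45, an abundant outer membrane protein gene, rose in all 3 sugars, to 1.52 ± 0.60 in raffinose, 2.43 ± 0.50 in galactose and 3.21 ± 0.36 in glucose. BCS1, which assembles the Rieske protein into the respiratory chain, fell to -0.94 ± 0.30 in raffinose. Of 12 genes for cytosolic chaperones and the nascent chain complex, 3 fell and 0 rose in raffinose, 4 fell and 4 rose in galactose, and 8 fell and 3 rose in glucose. EGD1 of that complex fell to -1.66 ± 0.44 in galactose and EGD2 to -1.43 ± 0.60 in glucose. The cytosolic Hsp70 genes SSA1 (2.22 ± 0.75) and SSA2 (-1.52 ± 0.86) had opposite signs in glucose; whether these paralogs share probe signal was not tested. Of 11 genes for processing and quality control proteases, 2 fell in each sugar, while 2 rose in raffinose, 1 in galactose and 3 in glucose. A list of 10 genes joined outer membrane insertion with the tether between mitochondria and endoplasmic reticulum, and held OM45. Of its genes 2 fell and 2 rose in raffinose, 5 fell and 1 rose in galactose, and 2 fell and 5 rose in glucose. For those of inner membrane insertion and assembly, 3 of 12 fell and 2 rose in raffinose, 9 fell and 1 rose in galactose, and 0 fell and 6 rose in glucose.

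Set beside the other nuclear-encoded mitochondrial genes, import and mitochondrial ribosome genes had medians below 0 in each sugar, whereas the respiratory chain had one above 0 in raffinose and glucose. Of all genes, 14.3% were lower and 22.4% higher in raffinose, 25.2% and 34.8% in galactose, and 31.8% and 26.8% in glucose. Mitochondrial ribosomal protein genes passed the test as lower in 29 of 56 cases in raffinose, 50 in galactose and 20 in glucose and as higher in 2, 0 and 3, the medians being -0.48, -1.26 and -0.26. In glucose their share of lower calls lay near that of all genes. This list was drawn by symbol, so a gene so named may not encode a ribosomal protein. Its highest value in raffinose and in glucose was that of MRP8, at 0.89 and 2.12. Respiratory chain and ATP synthase genes passed the test as lower in 0 of 39 cases in raffinose, 18 in galactose and 0 in glucose and as higher in 21, 2 and 39, the medians being 0.58, -0.41 and 1.64. In glucose the highest import gene apart from TIM11 was MDM10 at 0.62, near the lowest respiratory chain gene at 0.57. These are counts and medians, and the difference between the lists was not tested.

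**Figure D4:**
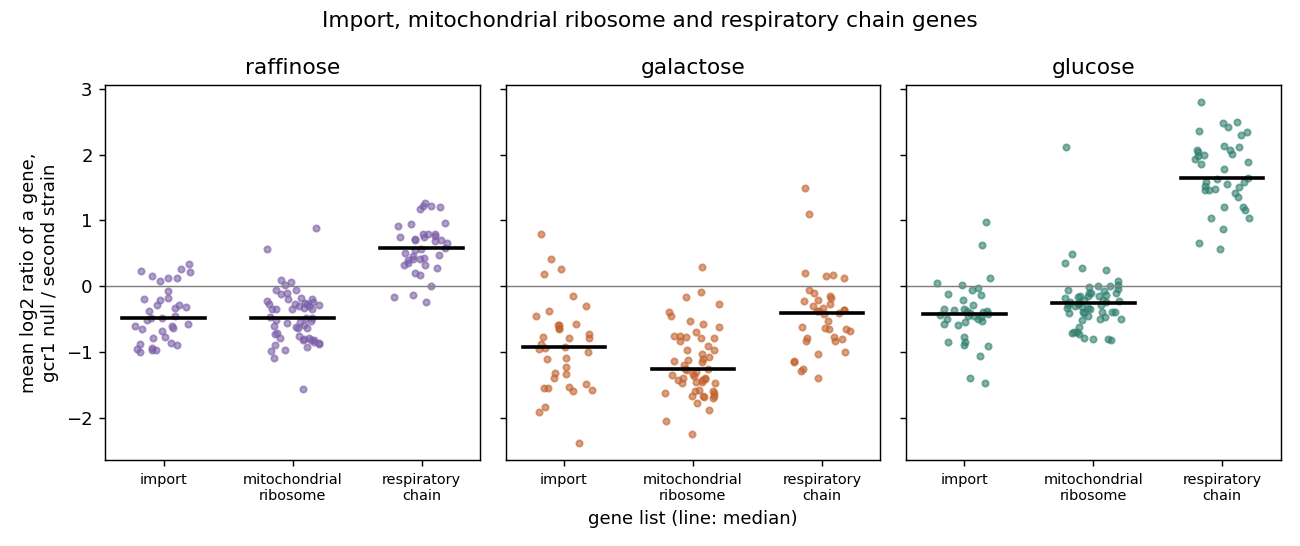
Mean log2 ratio over 4 arrays (labelled gcr1 null over second strain) of each of 37 import, 56 mitochondrial ribosomal and 39 respiratory chain and ATP synthase genes in 3 sugars, 1 point a gene, with the median as a bar. In glucose the respiratory chain median is 1.64 and the import median -0.42.

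The order of the members was partly shared between galactose and glucose, and in raffinose it turned on the sign of replicates 3 and 4. Over the 37 genes, Spearman's rho of the mean ratios was 0.66 between raffinose and galactose, 0.59 between raffinose and glucose and 0.67 between galactose and glucose (Pearson's r = 0.70, 0.63 and 0.57). The same rho over all 5636 genes was 0.56, 0.49 and 0.35. These values describe genes, which are not independent, and the sugars share probes and the array pairs. With raffinose replicates 3 and 4 turned, an alternative chosen after the data were seen, rho over the 37 genes was -0.17 between raffinose and galactose and -0.30 between raffinose and glucose, beside -0.25 and -0.19 over all genes. The turned means are differences between the array pairs, so they cannot show which order holds. As deposited, TOM5 was among the 3 lowest members in each sugar and MDM10 among the 3 highest; with the 2 raffinose arrays turned, TOM5 was number 10 and MDM10 number 2 from the lowest in raffinose.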

How the data were processed

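Per the labels, total RNA was labelled by linear amplification, Cy5 marking the first channel and Cy3 the second. The authors deposited a log2 ratio for each probe on each array. Base 2 was assumed, and the sources used here state neither the normalization nor whether dye swaps were turned. Of 10807 probes 9271 had 1 gene name, matched to assembly R64 for names only. They were averaged to 5636 genes with values on at least 3 of 4 arrays per sugar; 26 members had 2 probes, 11 had 1, and all had values on 12 arrays.

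Limma 3.58.1 (R 4.3.3) fitted 1 mean per sugar over 12 arrays (9 residual degrees of freedom), tested two-sided against 0 and against each other, with Benjamini-Hochberg adjustment over all genes. Deviations of same-numbered arrays correlated at r = 0.522 to 0.893 between sugars, and numbers were taken to pair arrays. The split of replicates 1 and 2 from replicates 3 and 4, seen in each sugar, enters these correlations. In 3 of 12 cases the closest array of another sugar bore the same number, no more often than unrelated numbers would give. Pairing by number is therefore an assumption, and calls made only with the block rest on it. Members and lists were chosen with earlier results of these data known. All members are named. Values on every array were due for the 3 highest and 3 lowest called members per sugar and the 2 highest and 2 lowest per contrast, and from the outside lists up to 2 called genes at each end per sugar were named. Scanner files were not analysed here, so background, dim probes and slides were not varied.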

Additional observations from a re-analysis of the deposited data

Results flagged for a closer look

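Raffinose replicate 1 of TIM12, at -0.22, lay further from the other 3 arrays than Dixon's test allows at the 95% level. It was the only such case among 111 groups of 4 arrays; chance alone gives about 1 in 20.

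The strain ratio of several members differed between sugars by the limma contrast. For galactose minus glucose the negative log2 differences were -1.62 for TIM10, -1.55 for TIM11, -1.42 for TIM9, -1.37 for PAM17, -1.10 for TOM6, -0.99 for TOM22, -0.99 for TIM13, -0.97 for TIM18, -0.84 for TOM7, -0.70 for TOM20, -0.53 for TIM23, -0.51 for PAM16 and -0.39 for TOM71, and the positive ones 0.72 for TOM70, 0.78 for TOM1 and 0.79 for MIA40. For raffinose minus glucose they were -0.75 for TIM11 and -0.46 for TOM71, and 0.51 for TOM5, 0.52 for PAM18 and 0.71 for MIA40. For raffinose minus galactose they were -0.71 for TOM1, and 0.66 for PAM18, 0.73 for ERV1, 0.75 for TIM21, 0.79 for PAM16, 0.80 for TIM11, 0.84 for PAM17, 0.86 for SAM37, 0.87 for TOM5, 0.93 for TOM20, 0.95 for TOM6, 1.0 for TIM18, 1.06 for TIM9, 1.11 for TIM13, 1.26 for TOM22 and 1.38 for TIM10. In galactose MIA40 and TOM70 had positive mean ratios and in glucose negative ones, and TIM11 and PAM17 the reverse (PAM17 at -1.32 in galactose and 0.056 in glucose).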

How the results depend on the processing

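The number of the 37 members called was 17 in raffinose, 33 in galactose, 21 in glucose, 5 for raffinose minus glucose, 16 for galactose minus glucose and 16 for raffinose minus galactose. It moved by over 1.5 times under these settings. With each array pair averaged (replicates 1 and 2, and 3 and 4) it was 0 in raffinose, 20 in galactose, 4 in glucose, 0 for raffinose minus glucose, 3 for galactose minus glucose and 0 for raffinose minus galactose. With averages across the pairs it was 30 in raffinose, 19 for raffinose minus glucose, 30 for galactose minus glucose and 29 for raffinose minus galactose (replicates 1 and 3, and 2 and 4), and 35 in raffinose, 32 in glucose, 28 for raffinose minus glucose, 33 for galactose minus glucose and 30 for raffinose minus galactose (replicates 1 and 4, and 2 and 3). With the replicate number as a block (replicate block) it was 28 in raffinose, 18 for raffinose minus glucose, 28 for galactose minus glucose and 27 for raffinose minus galactose, and no call was lost. With the array pair as a term it was 33 in raffinose, 26 for raffinose minus glucose, 31 for galactose minus glucose and 29 for raffinose minus galactose. Centring each array gave 28 in raffinose, 14 for raffinose minus glucose and 32 for galactose minus glucose, and quantile normalization 30 in raffinose and 15 for raffinose minus glucose. Fitting the raffinose arrays alone gave 11 in raffinose. With raffinose replicates 3 and 4 turned it was 0 in raffinose, 17 for raffinose minus glucose and 28 for raffinose minus galactose; the raffinose median became 0.31, the difference of TOM71 for raffinose minus glucose 0.17, and the raffinose ratios 0.097 for TIM12, 0.12 for PAM18, 0.12 for TOM71, 0.22 for TIM23, 0.24 for TOM5, 0.26 for TOM7, 0.31 for TOM20, 0.31 for TOM6, 0.33 for MAS2, 0.37 for OXA1, 0.38 for TIM44, 0.39 for TIM9, 0.41 for TIM10, 0.53 for TIM17, 0.53 for TOM40 and 0.54 for TIM8. Turning leaves only the difference between the array pairs, so its 0 calls in raffinose cannot decide the sign. The cause of the other shifts was not tested. Leaving out each array in turn gave 12 to 19 in raffinose, 30 to 32 in galactose, 15 to 20 in glucose, 3 to 5 for raffinose minus glucose, 11 to 16 for galactose minus glucose and 12 to 16 for raffinose minus galactose, with medians of -0.56 to -0.35 in raffinose, -0.996 to -0.86 in galactose and -0.47 to -0.37 in glucose. For raffinose minus glucose it was 3 without glucose replicate 1, 2 or 4 or raffinose replicate 1. Using the first probe of each gene, or genes with values on all 12 arrays, moved no member count by over 1.5 times. Over all genes, 2071 were called in raffinose, 3383 in galactose, 3302 in glucose, 2117 for raffinose minus glucose, 2656 for galactose minus glucose and 1718 for raffinose minus galactose. Averaging within pairs gave 184 in raffinose, 1688 in galactose, 1564 in glucose, 132 for raffinose minus glucose, 796 for galactose minus glucose and 84 for raffinose minus galactose; across them, 3660 in raffinose, 3713 for raffinose minus glucose, 4089 for galactose minus glucose and 3561 for raffinose minus galactose, or 4558 in raffinose, 4556 for raffinose minus glucose, 4749 for galactose minus glucose and 4431 for raffinose minus galactose for the other pairing; the block, 3406 in raffinose, 3492 for raffinose minus glucose and 3358 for raffinose minus galactose; the pair term, 4075 in raffinose, 4097 for raffinose minus glucose, 4384 for galactose minus glucose and 4012 for raffinose minus galactose; centring, 2820 for raffinose minus galactose; quantile normalization, 3341 in raffinose; the raffinose arrays alone, 1233; and turning, 0 in raffinose. Centring changed the split of all genes to 1436 higher and 1424 lower in raffinose (1265 and 806 without), 1396 and 1418 for raffinose minus glucose (1272 and 845) and 1586 and 1760 for galactose minus glucose (1568 and 1088). With raffinose replicates 3 and 4 turned, 2705 of all genes were called for raffinose minus glucose and 2503 for raffinose minus galactose.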
